A study of Mus musculus with 3 samples.

Results

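The 10 genes described here code for KSRP and for other proteins that bind AU-rich elements in mRNA: Khsrp (KSRP), its relatives Fubp1 and Fubp3, Elavl1 (HuR), Zfp36 (TTP) with Zfp36l1 and Zfp36l2, Hnrnpd (AUF1), Tia1 and Tial1 (TIAR). They were chosen by name and are 10 of the 22706 genes in the deposited files. All 10 were among the 11462 genes that reached 1 FPKM in at least 1 library and have a RefSeq transcript of at least 300 nt.

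Polyadenylated RNA of C2C12 cells, an established mouse line of myoblasts that can also be turned towards bone, was sequenced in 3 libraries, with 1 library per group. The library labelled shKSRP came from cells transfected with a hairpin against KSRP, with no agent added, in growth medium with 20% FBS. Cells of the BMP2 library, labelled DM + BMP2, were mock-transfected. The protocol gives 2% horse serum for differentiation medium (DM) and a range of 100 to 300 ng/ml for recombinant BMP2, a bone morphogenetic protein that turns these cells towards bone. The mock library came from mock-transfected cells in the growth medium, with no agent. How long BMP2 was given, and whether the hairpin was carried by a clone or a pool, was not settled by the labels. With 1 library for each group, differences could not be checked against replicates and carry no p-value.

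AU-rich elements are runs of A and U in 3′ untranslated regions (3′ UTRs) that set how fast an mRNA is degraded and how well it is translated. KSRP and the TTP family bind them and bring in deadenylases and the exosome, HuR protects the mRNAs it binds, AUF1 isoforms can do either, and TIA1 and TIAR hold back translation. In C2C12 myoblasts KSRP is known for hastening the decay of muscle mRNAs such as Myog, and it also helps the maturation of some microRNAs.

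Levels are FPKM, fragments per kilobase of transcript scaled to library depth, summed over the RefSeq transcripts of a gene and over the transcripts that were assembled from the library's own reads at the same locus. The ± after a level is a half-width from the deposited 95% intervals, with the transcripts of a gene taken as independent, and covers counting and assignment error only. Ratios are log2 of (FPKM + 1) over (FPKM + 1), which understates changes of low genes, and genes that differed by 2-fold or more were called higher or lower, which is a fixed rule of size and no test. FPKM divides by transcript length, so the same fragments give a higher FPKM on a shorter model. Each ratio was therefore also computed with the fragments of a gene spread over 1 fixed length, that of its longest RefSeq transcript, which is named the fixed-length ratio.

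The interval widths corresponded to 68.5 M (mega) fragments in the library labelled shKSRP, 60.4 M in the BMP2 library and 62.1 M in mock. Of 7 myoblast markers, 6 were above 1 FPKM in all libraries, with the determination factor Myod1 at 34.8, 17.3 and 30.7 FPKM in that order. Their levels differed between libraries: Myf5 was at 48.4, 9.09 and 7.75 FPKM, Cdh15 at 31.1, 5.02 and 38.3, and Pax7 at 2.90, 0.463 and 0.118. By the 2-fold rule Myf5 and Pax7 were higher in the library labelled shKSRP than in mock, and Cdh15 was lower in the BMP2 library than in mock. The BMP2 library was high in the osteoblast genes Alpl, at 12.8 FPKM against 0.0518 in mock, and Sp7, at 8.12 against 0.187. Of the 8 osteoblast and BMP-response markers, 4 were higher there than in mock by the 2-fold rule, where 9.21% of all genes were. The other 4 were neither, with Id1 at 212 FPKM against 289. The 6 differentiated muscle markers summed to 60.9, 111 and 56.1 FPKM in the library labelled shKSRP, the BMP2 library and mock. Among them Tnnt3, at a shared locus, was listed at 0 outside mock. The 4 cell cycle markers summed to 108 FPKM in the library labelled shKSRP, 123 in the BMP2 library and 402 in mock. Of the 3 chondrocyte markers, which summed to 6.29, 87.0 and 20.7 FPKM in the same order, Acan was listed at 0 in the library labelled shKSRP and in mock. The 6 epithelial markers summed to 18.5, 264 and 114 FPKM, nearly all of it Krt14, which lies at a locus with a second gene, while Epcam was listed at 0 throughout. The 4 neural markers summed to 9.84, 92.8 and 98.0 FPKM, nearly all Tubb3, also at a shared locus, with Rbfox3 and Sox10 listed at 0 throughout. Sums were at most 5.17 FPKM for the 3 adipocyte markers, 2.76 for the 3 blood markers matched and 0.109 for the 3 endothelial markers. The part of these differences in the results below was not tested, and in bulk RNA fewer cells of a type and less RNA per cell cannot be told apart.

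**Figure D1:**
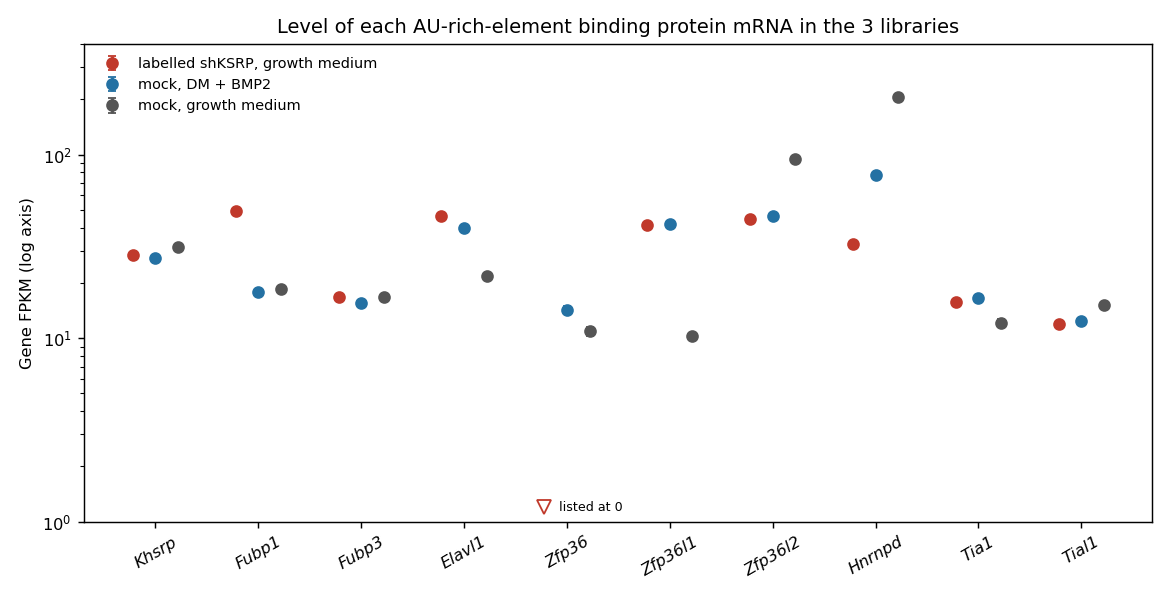
Gene level (FPKM, log axis) of the 10 genes in the library labelled shKSRP, the BMP2 library and the mock library, 1 point per library, with error bars for the half-width of the deposited 95% interval, which are mostly smaller than the points. Hnrnpd and Zfp36l2 stand highest in mock, Zfp36l1 stands lowest there, Fubp1 stands highest in the library labelled shKSRP, and the open triangle marks Zfp36, listed at 0 in that library.

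Against mock, the library labelled shKSRP had 3 of the 10 genes higher by 2-fold or more (Fubp1, Elavl1 and Zfp36l1) and 3 lower (Zfp36, Zfp36l2 and Hnrnpd). Of all compared genes, 11.0% were higher and 12.9% lower by that rule. The BMP2 library had 1 gene higher than mock (Zfp36l1), where 9.21% of all genes were, and 2 lower (Zfp36l2 and Hnrnpd), where 8.95% were. The library labelled shKSRP set against the BMP2 library had 1 gene higher (Fubp1), with a background of 6.06%, and 2 lower (Zfp36 and Hnrnpd), with a background of 8.65%. The median log2 ratio of the 10 genes was −0.07, against −0.02 for all genes, in the library labelled shKSRP over mock, and −0.08, against 0.03, in the BMP2 library over mock. In the library labelled shKSRP over the BMP2 library it was −0.03, against −0.02 for all genes. Both comparisons with mock use the same mock library, so a level that was off in that library alone would enter both.

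The split of calls over all genes moved with the scale. In the library labelled shKSRP against mock, 1264 genes were higher and 1483 lower as deposited, and 2029 and 943 once libraries were scaled to an equal FPKM sum, where 3 of the 10 genes were higher and 2 lower. In the BMP2 library against mock the counts were 1056 higher and 1026 lower as deposited, and 1525 and 733 with that scaling, where 2 of the 10 were higher (Elavl1 at 1.09 joined Zfp36l1) and 1 was lower.

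With fixed-length ratios the counts of the 10 genes were smaller. They left 1 gene higher (Zfp36l1) and 3 lower (Zfp36, Zfp36l2 and Hnrnpd) in the library labelled shKSRP against mock, with backgrounds of 11.1% and 11.0%. They left 1 higher (Zfp36l1) and 1 lower (Zfp36l2) in the BMP2 library against mock, with backgrounds of 8.67% and 7.31%. In the library labelled shKSRP against the BMP2 library they left none higher and 1 lower (Zfp36), with backgrounds of 5.91% and 7.75%. Each lower call of Zfp36 rests on an exact 0 in the library labelled shKSRP, which can be an estimate that failed. The deposited intervals of 9 of the 10 genes lay apart in each comparison with mock, and those of 5 lay apart between the library labelled shKSRP and the BMP2 library. Intervals lay apart for 85.3%, 81.3% and 79.2% of all genes in these 3 comparisons, so intervals that lie apart were the usual state of a gene here.

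**Figure D2:**
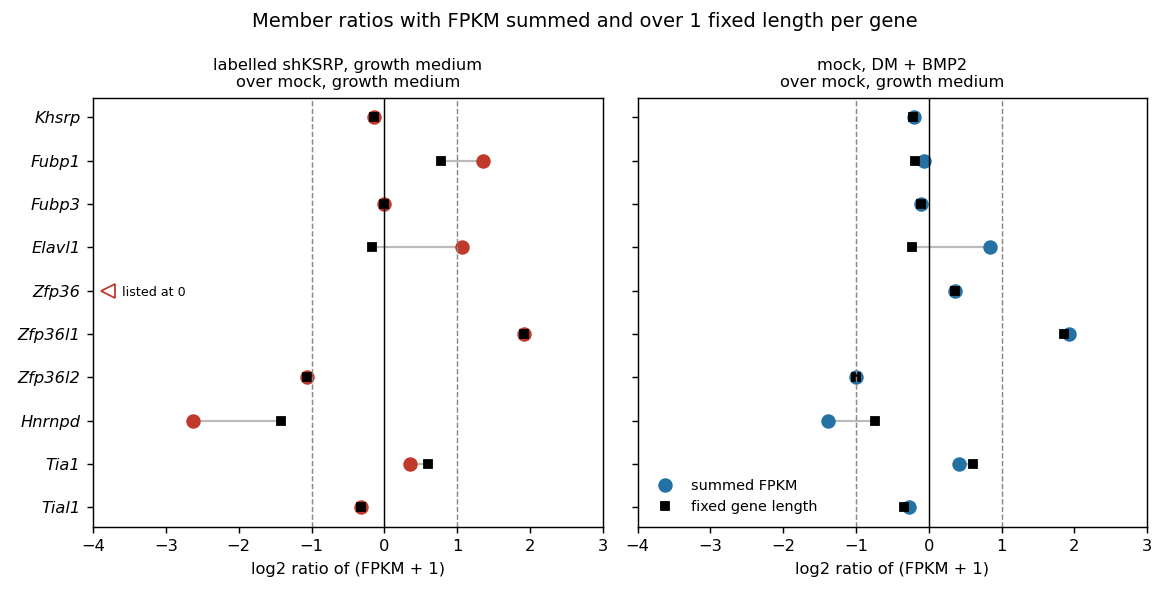
Log2 ratio of (FPKM + 1) of each gene over mock, for the library labelled shKSRP on the left and the BMP2 library on the right, with circles for summed FPKM, squares for the fixed-length ratio and dashed lines at 2-fold. Zfp36l1 and Zfp36l2 keep their place under both measures, Elavl1 moves from 1.06 to −0.17 on the left, Hnrnpd moves from −2.62 to −1.42, and the open triangle marks Zfp36, listed at 0.

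Khsrp, the gene that the hairpin targets (chr17:57160472-57170930, minus strand, mm9), was at 28.4 ± 0.640 FPKM in the library labelled shKSRP, 27.1 ± 0.666 in the BMP2 library and 31.4 ± 0.852 in mock. The log2 ratio over mock was −0.14 for the library labelled shKSRP and −0.20 for the BMP2 library, which carried no hairpin. Khsrp mRNA thus did not set the labelled knockdown apart from the mock-transfected BMP2 library, and each direction given for the library labelled shKSRP carries that limit. The intervals of the library labelled shKSRP and the BMP2 library overlapped, and each lay apart from that of mock. An mRNA level says nothing of KSRP protein, which was not measured in these files.

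All Khsrp FPKM of the library labelled shKSRP and of the BMP2 library stood on the RefSeq transcript of 3999 nt and 18 exons. In mock 49.5% did, at 15.5 FPKM, and 15.9 FPKM stood on an assembled model of 4050 nt and 16 exons that starts 3006 nt downstream of the RefSeq start and whose 15 introns are all RefSeq introns. The model differs from the RefSeq transcript at the 5′ end and not at the 3′ end. On the RefSeq transcript alone the log2 ratio over mock was 0.83 for the library labelled shKSRP and 0.77 for the BMP2 library, so the sign of the Khsrp ratio depended on whether the assembled model was counted. The fixed-length ratios, −0.15 and −0.21, stayed with the summed values.

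Among 9302 genes that were above 0 in all libraries and shared no locus, those nearest to Khsrp in its ratios over mock were Alyref2, Vps25 and Cep78, at distances of 0.012, 0.013 and 0.015 on the log2 scale. This rests on 3 libraries, and 165 genes lay within 0.1 of Khsrp in both ratios.

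Fubp1 (chr3:151873422-151899794, plus strand, mm9) codes for a relative of KSRP with the same kind of KH domains, known for binding the far upstream element of Myc. Its level was 49.3 ± 1.31 FPKM in the library labelled shKSRP, 17.8 ± 0.756 in the BMP2 library and 18.6 ± 0.703 in mock. The library labelled shKSRP stood apart, at a log2 ratio of 1.36 over mock and 1.42 over the BMP2 library, while the intervals of the BMP2 library and mock overlapped. Part of this lay in model length. For the library labelled shKSRP, 24.5 and 9.48 FPKM stood on assembled models of 2188 and 2179 nt that end 4443 nt before the RefSeq 3′ end, and 7.09 FPKM stood on the RefSeq transcript of 6491 nt. A further 8.18 FPKM stood on an assembled model of 3551 nt that ends 211 nt before the RefSeq 3′ end. In mock, all models above 0 reached the RefSeq 3′ end. Of their FPKM, 9.09 stood on a model of 2463 nt, 5.08 on one of 6485 nt and 4.46 on the RefSeq transcript. The model of 2463 nt, with 3 introns that RefSeq does not have, is shorter than the Fubp1 3′ UTR of 4423 nt in GENCODE M21. It therefore reached the end without holding the whole 3′ UTR, as did a model of 2466 nt in the BMP2 library. The fixed-length ratio of Fubp1 was 0.78 over mock and 0.98 over the BMP2 library, in the same direction and short of a call by the 2-fold rule. Without the 1 FPKM that the ratio adds to each level, the difference from the BMP2 library was 2.05-fold. The RefSeq transcript alone was at 7.09 FPKM in the library labelled shKSRP, 7.55 in the BMP2 library and 4.46 in mock, which gave a log2 ratio of −0.08 between the library labelled shKSRP and the BMP2 library.

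Fubp3 (chr2:31428245-31473039, plus strand, mm9), the other KH-domain relative measured, had the ratios nearest to 0 over mock in the library labelled shKSRP. It was at 16.7 ± 0.508 FPKM in the library labelled shKSRP, 15.6 ± 0.523 in the BMP2 library and 16.8 ± 0.535 in mock, all on its RefSeq transcript. The log2 ratios over mock were −0.01 and −0.10, and no assembled model took part in them.

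Elavl1 (chr8:4284782-4325100, minus strand, mm9) codes for HuR, which binds AU-rich elements and stabilises the mRNAs, muscle mRNAs among them. It was at 46.5 ± 1.37 FPKM in the library labelled shKSRP, 39.7 ± 1.07 in the BMP2 library and 21.8 ± 0.475 in mock. The log2 ratios over mock were 1.06 and 0.84. These levels stood on different transcript models. In mock all FPKM lay on the RefSeq transcript of 6030 nt. The library labelled shKSRP had only 4.61 FPKM there, with 23.4 FPKM on an assembled model of 2401 nt and 18.5 FPKM on one of 1744 nt. In the BMP2 library 4.06 FPKM lay on the RefSeq transcript and 35.6 FPKM on an assembled model of 2433 nt. All of the short models end 3655 or 3656 nt before the RefSeq 3′ end, inside the last exon, so the 2 libraries assembled apart from each other place the shorter end within 1 base of the same position. The models of the library labelled shKSRP also start 3845 and 24655 nt downstream of the RefSeq start.

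The fixed-length level of Elavl1 was 19.3 FPKM in the library labelled shKSRP, 18.4 in the BMP2 library and 21.8 in mock, with log2 ratios over mock of −0.17 and −0.23. The RefSeq transcript alone gave ratios of −2.02 and −2.17. The higher summed FPKM of Elavl1 thus came with short models, not with more fragments per fixed length: the sign of the ratio turned with the measure.

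What the short Elavl1 models leave out is rich in the 7-base AU-rich motif TATTTAT, written as DNA, the core of the site that TTP is known to bind. Counted on the transcribed strand with overlapping matches included, the Elavl1 3′ UTR of 4218 nt in GENCODE M21 holds 8 such motifs. Of 1819 genes with a 3′ UTR within 25% of that length, 99.7% had fewer, and 27.7% of all 20937 genes with a 3′ UTR had any. All 8 lie 378 to 424 nt before the transcript end, within the stretch that the short models lack. A match is a description of the letters and not a measured site of binding. The windows below show 2 of the 8, at chr8:4285784-4285812 and chr8:4285746-4285774 (GRCm38, minus strand), which show how the motif repeats and overlaps itself, with 1 match in capitals in each.
Elavl1 motif 2 of 8: tgaaaattattTATTTATttatttatttt
Elavl1 motif 7 of 8: gtttgtttattTATTTATttattacttgt

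**Figure D3:**
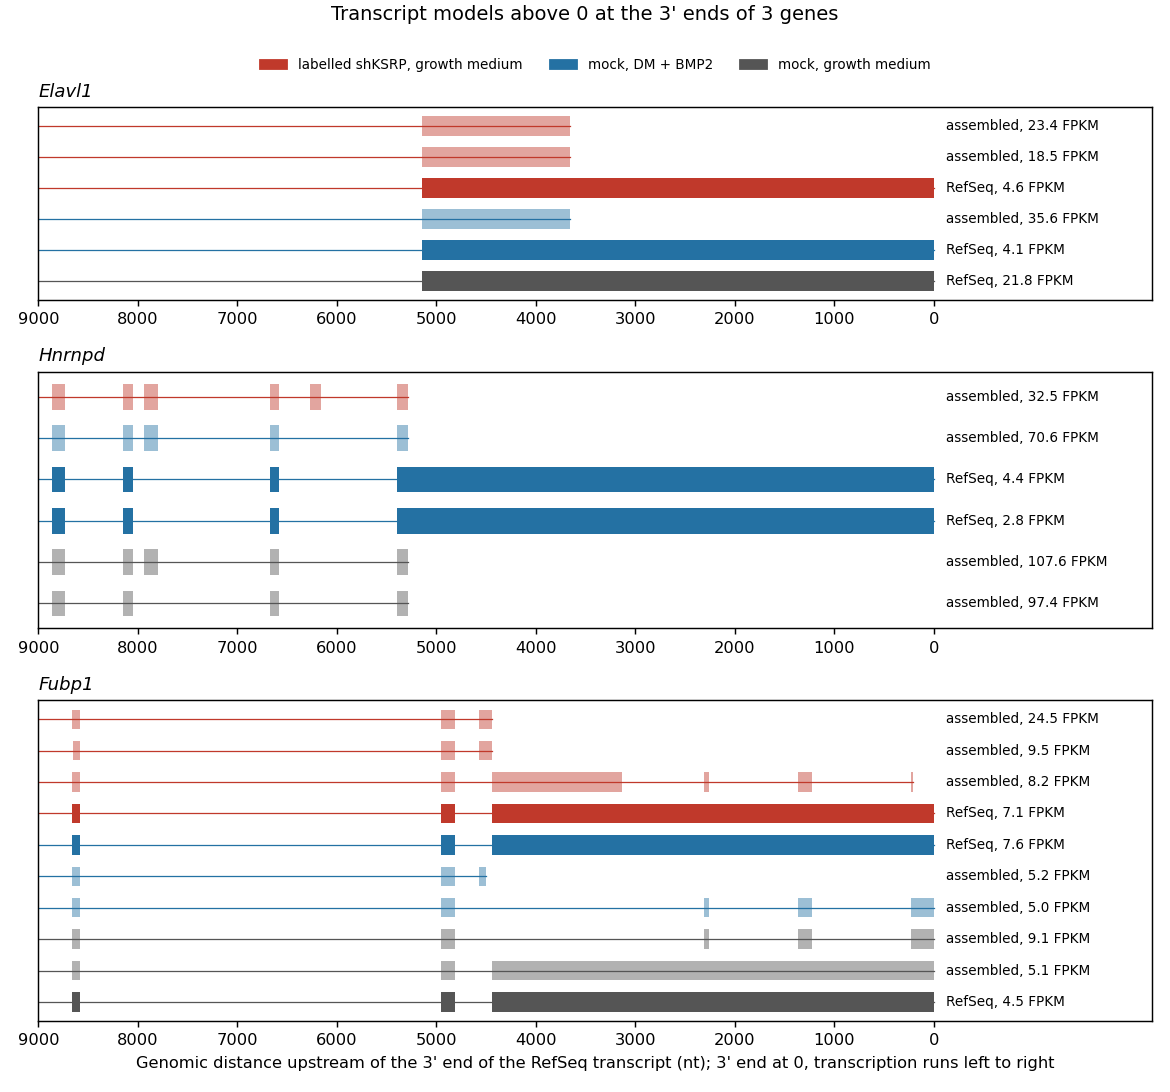
Transcript models above 0 of Elavl1, Hnrnpd and Fubp1 near the 3′ end, with the distance (nt) upstream of the RefSeq 3′ end on the horizontal axis, 1 row per model, exons as boxes (RefSeq in full colour, assembled in pale colour) and the FPKM of each model beside it. The pale Elavl1 models end about 3655 nt and the pale Hnrnpd models about 5280 nt before the RefSeq end, and the mock library has all of its Elavl1 FPKM on the full-length transcript.

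The TTP family brings the deadenylase complex to AU-rich mRNAs, and nearly all of its FPKM stood on RefSeq transcripts, so its levels depended little on transcript models. Zfp36 (chr7:29161803-29164247, minus strand, mm9), the gene of TTP, was listed at 0 in the library labelled shKSRP, and stood at 14.2 ± 0.746 FPKM in the BMP2 library and 10.9 ± 0.645 in mock, all on its RefSeq transcript of 1765 nt. Those levels correspond to about 1515 and 1196 fragments. No fold is given against the 0. An exact 0 in these files can also be an estimate that failed: of 2273 genes whose highest level was 10 to 20 FPKM, 80 had an exact 0 in the library labelled shKSRP. The ribosomal protein gene Rpl26, at 204.3 FPKM in mock, was listed at 0 in both other libraries. Which of these the Zfp36 value is was not tested. Between the BMP2 library and mock, Zfp36 had a log2 ratio of 0.35, below 2-fold, with intervals apart.

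Zfp36l1 (chr12:81208747-81214000, minus strand, mm9) codes for a TTP relative with the same pair of zinc fingers. It was at 41.2 ± 0.900 FPKM in the library labelled shKSRP, 41.7 ± 1.17 in the BMP2 library and 10.2 ± 0.470 in mock. The library labelled shKSRP was 4.03-fold and the BMP2 library 4.08-fold of mock, and the intervals of those 2 libraries overlapped. In the BMP2 library 12.4 FPKM stood on an assembled model of 2508 nt with 1 intron that RefSeq does not have, and all other Zfp36l1 FPKM was on the RefSeq transcript of 2984 nt. The fixed-length ratios were 1.91 and 1.86 on the log2 scale, and the call of higher held in both comparisons with mock under each of the 9 alternative settings tried for these genes. Not all of these could change it. The library labelled shKSRP and mock have no assembled model of Zfp36l1, so settings that drop or reassign such models, or fix the length, returned the same 1.91 between them.

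Zfp36l2 (chr17:84583269-84587287, minus strand, mm9) codes for another such relative and went the other way. It was at 44.7 ± 0.857 FPKM in the library labelled shKSRP, 46.5 ± 0.929 in the BMP2 library and 94.0 ± 1.303 in mock, all on its RefSeq transcript of 3532 nt. The library labelled shKSRP held 47.6% and the BMP2 library 49.4% of the mock level, just past the 2-fold line. Scaling each library to an equal FPKM sum, which moved the median log2 ratio of all genes to 0.27 and 0.26, gave ratios of −0.72 and −0.74 and ended both calls. A pseudocount of 5 FPKM in place of 1 ended them too, at −0.99 and −0.94. Thada lies at the same locus in the library labelled shKSRP, which makes the division of fragments there uncertain. The levels of Zfp36l1 and Zfp36l2 were near each other outside mock, whereas in mock Zfp36l2 stood far above both other members.

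The mRNAs of this family carry AU-rich motifs themselves. The 3′ UTRs of Zfp36, Zfp36l1 and Zfp36l2 hold 3 TATTTAT motifs each in GENCODE M21, more than in 98.7%, 96.0% and 96.1% of genes with 3′ UTRs of like length. Fubp1 has 2, Tia1 and Tial1 have 1 each, and Khsrp, Fubp3 and Hnrnpd have none. The Fubp1 3′ UTR has 4423 nt, so any motif in it falls in the stretch lacked by the Fubp1 models that end 4443 nt or more before the RefSeq 3′ end. The equal counts correspond to 3.88, 1.63 and 1.65 motifs per kb of 3′ UTR in Zfp36, Zfp36l1 and Zfp36l2. Whether the motifs bear on the levels was not tested. For each member of the family 1 motif is shown, with the match in capitals. The windows lie on the minus strand of GRCm38 at chr7:28376951-28376979, chr12:80108422-80108450 and chr17:84184914-84184942.
Zfp36 motif 2 of 3: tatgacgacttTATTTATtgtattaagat
Zfp36l1 motif 1 of 3: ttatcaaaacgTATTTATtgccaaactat
Zfp36l2 motif 1 of 3: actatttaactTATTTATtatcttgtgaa

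Hnrnpd (chr5:100384955-100407957, minus strand, mm9) codes for AUF1, whose isoforms bind AU-rich elements and can speed or slow decay. On summed FPKM it had the widest spread of those of the 10 genes above 0 in all libraries, at 32.5 ± 0.939 FPKM in the library labelled shKSRP, 77.8 ± 2.38 in the BMP2 library and 205 ± 4.34 in mock. None of the intervals overlapped. The log2 ratio over mock was −2.62 for the library labelled shKSRP and −1.39 for the BMP2 library. With RefSeq transcripts alone, which are listed at 0 in the library labelled shKSRP and in mock, the ratio of the BMP2 library over mock turned to 3.04. Most of this FPKM stood on short assembled models, of 2207 nt in the library labelled shKSRP, 1009 nt in the BMP2 library, and 1063 and 918 nt in mock. They end 5280 to 5286 nt before the RefSeq 3′ end. RefSeq transcripts, of 6606 to 6810 nt, held none of the FPKM in the library labelled shKSRP and in mock, and 9.26% in the BMP2 library. The fixed-length level was 10.5 FPKM in the library labelled shKSRP, 17.5 in the BMP2 library and 29.9 in mock, in the same order but over a narrower range than Zfp36l1, which ran between 10.2 and 41.2 at fixed length. The fixed-length log2 ratio was −1.42 for the library labelled shKSRP over mock, and −0.74 for the BMP2 library over mock, below 2-fold. Hnrnpd shares its locus with its neighbour Hnrnpdl in the library labelled shKSRP and in mock, so the division of fragments is uncertain there.

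AUF1 isoforms differ by 2 coding exons that can be skipped, of 57 and 147 nt, which are 19 and 49 codons with no base left over. Of the FPKM on models that span the 57-nt exon, 100% included it in the library labelled shKSRP, 96.3% in the BMP2 library and 100% in mock. In mock that share covers 97.4 of the 205 FPKM of the gene, because the other model starts 5964 nt downstream of the RefSeq start, past this exon. The 147-nt exon was included in 100%, 90.7% and 52.5% of spanning FPKM in the same order. In mock a model with that exon held 107.6 FPKM and a model without it 97.4 FPKM, whereas the library labelled shKSRP had 1 model, with both exons. Each share rests on 1 to 3 models above 0 in a library that was assembled on its own, and no interval on a share is given. Both exons are shown since they set the isoforms apart. Each is in capitals with 10 bases of the next exon on either side, from GENCODE M21 transcripts (GRCm38, minus strand) at chr5:99976534-99976590 and chr5:99963731-99963877.
Hnrnpd exon of 57 nt: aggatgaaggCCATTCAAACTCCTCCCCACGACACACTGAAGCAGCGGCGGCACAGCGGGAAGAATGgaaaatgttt
Hnrnpd exon of 147 nt: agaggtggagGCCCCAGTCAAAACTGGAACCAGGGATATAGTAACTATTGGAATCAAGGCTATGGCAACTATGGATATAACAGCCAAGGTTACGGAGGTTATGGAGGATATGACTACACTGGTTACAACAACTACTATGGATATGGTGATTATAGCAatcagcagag

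Tia1 and Tial1 code for TIA1 and TIAR, which hold back translation of AU-rich mRNAs and gather in stress granules. Tia1 (chr6:86354213-86383399, plus strand, mm9) was at 15.7 ± 0.505 FPKM in the library labelled shKSRP, 16.5 ± 0.591 in the BMP2 library and 12.1 ± 0.572 in mock. Both ratios over mock, 0.35 and 0.42, were below 2-fold, and the intervals of the library labelled shKSRP and the BMP2 library overlapped. The RefSeq share of Tia1 was 100%, 46.7% and 31.7% in that order. The assembled part was a model of 4134 nt in the BMP2 library and models of 3222 and 3721 nt in mock, all starting at least 15860 nt downstream of the RefSeq start. On RefSeq transcripts alone the ratio over mock was 1.79 for the library labelled shKSRP. In the BMP2 library the Tia1 locus is shared with C87436.

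A 33-nt coding exon sets Tia1 isoforms apart. Among models that span it, 82.1% of FPKM included it in the library labelled shKSRP, where a RefSeq transcript without it held 2.82 FPKM. In the BMP2 library and in mock 100% included it, over 7.72 and 3.84 FPKM on 1 model each. The exon is shown in capitals with 10 bases of its neighbours, at chr6:86419101-86419133 (GRCm38, plus strand).
Tia1 exon of 33 nt: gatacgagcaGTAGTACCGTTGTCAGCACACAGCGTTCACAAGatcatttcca

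Tial1 (chr7:135583291-135605027, minus strand, mm9) was at 11.999 ± 0.444 FPKM in the library labelled shKSRP, 12.4 ± 0.549 in the BMP2 library and 15.2 ± 0.525 in mock. The log2 ratios over mock, −0.32 and −0.28, were below 2-fold with intervals apart. The RefSeq transcript held 18.7%, 15.2% and 80.2% of it in that order. An assembled chain of 12 exons, with 1 of its 11 introns absent from RefSeq, was built in each of the 3 libraries, at 9.76 FPKM in the library labelled shKSRP, 5.88 in the BMP2 library and 3.02 in mock. On the RefSeq transcript alone the ratio over mock was −2.03 for the library labelled shKSRP and −2.20 for the BMP2 library.

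**Figure D4:**
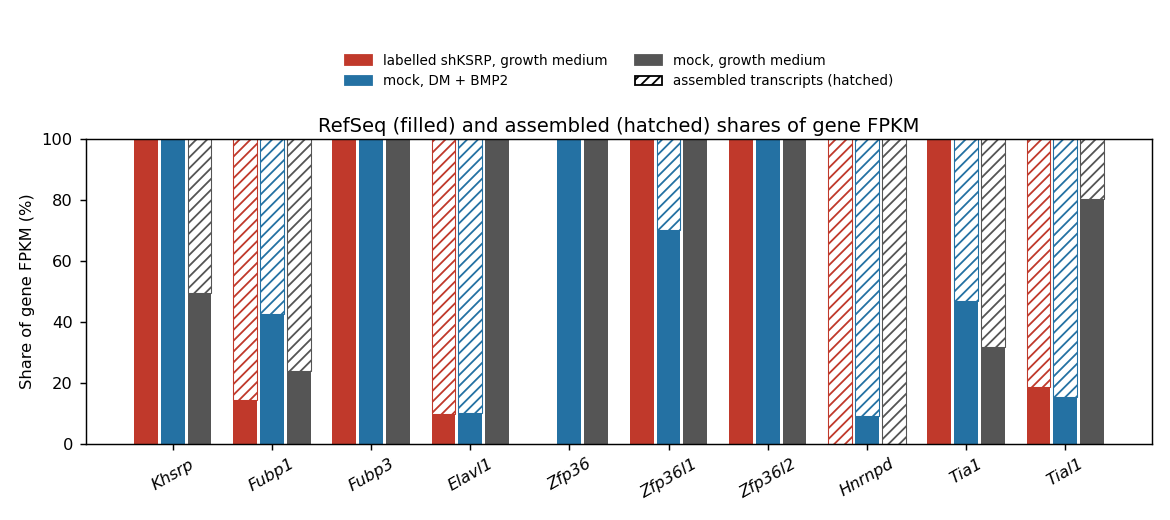
Share of the FPKM of each gene (%) on RefSeq transcripts (filled) and on assembled transcripts (hatched) in the library labelled shKSRP, the BMP2 library and the mock library. Fubp3 and Zfp36l2 are at 100% RefSeq in all libraries, Khsrp is split only in mock (49.5% RefSeq), Elavl1 is at 100% RefSeq only in mock, and Zfp36 has no bar in the library labelled shKSRP, where it is listed at 0.

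The order of the summed FPKM levels changed between the libraries. Fubp1 stood first in the library labelled shKSRP, followed by Elavl1, Zfp36l2, Zfp36l1, Hnrnpd, Khsrp, Fubp3, Tia1 and Tial1, with Zfp36 at 0. The intervals of Elavl1 and Zfp36l2 overlapped there, as did those of Fubp3 and Tia1. In the BMP2 library the order was Hnrnpd, Zfp36l2, Zfp36l1, Elavl1, Khsrp, Fubp1, Tia1, Fubp3, Zfp36 and Tial1. Neighbours whose intervals overlapped were Zfp36l1 with Elavl1, Fubp1 with Tia1, and Tia1 with Fubp3. In mock the order was Hnrnpd, Zfp36l2, Khsrp, Elavl1, Fubp1, Fubp3, Tial1, Tia1, Zfp36 and Zfp36l1, and the intervals of Zfp36 and Zfp36l1 overlapped. Khsrp was thus exceeded by 5, 4 and 2 of the other genes in the library labelled shKSRP, the BMP2 library and mock. At fixed length it was exceeded by 2, 2 and 1. Zfp36l2 then stood first in each library, at 44.7, 46.5 and 94.0 FPKM, and the library labelled shKSRP had Zfp36l1 next at 41.2, then Khsrp at 28.4, Fubp1 at 23.0 and Elavl1 at 19.3, with Hnrnpd at 10.5.

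Around the 10 genes, 21 of 26 listed further proteins that bind AU-rich or U-rich RNA were measured. Against mock, 1 was higher and 4 lower in the library labelled shKSRP (median log2 ratio −0.16), and in the BMP2 library 1 was higher and 4 lower (median −0.35). The shares over all genes were 11.0% higher and 12.9% lower for the library labelled shKSRP over mock (median −0.02), and 9.21% and 8.95% for the BMP2 library over mock (median 0.03). The higher one was Mbnl1, a splicing regulator of muscle, in both: 132 ± 1.63 FPKM in the library labelled shKSRP, 143 ± 1.29 in the BMP2 library and 23.2 ± 0.650 in mock. Hnrnpa1, an abundant splicing factor at a shared locus, was at 115 ± 2.52 FPKM in the library labelled shKSRP, against 282 ± 3.90 in mock. Ybx1, which packages mRNA, was at 190.2 ± 3.01 FPKM in the BMP2 library, against 827 ± 14.3 in mock, with a log2 ratio of −2.11 that was −0.89 at fixed length. Hnrnpab, a relative of AUF1, was at 197 ± 2.55 FPKM in the library labelled shKSRP, against 458 ± 751 in mock, where the interval is wider than the value.

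All 29 listed enzymes that KSRP or TTP bring to mRNAs, or that process microRNAs, were measured. Against mock, 2 were higher and 5 lower in the library labelled shKSRP (median −0.08), and in the BMP2 library 3 were higher and 6 lower (median −0.24), beside the same shares over all genes of 11.0% and 12.9%, and of 9.21% and 8.95%. In each comparison 1 of the lower calls is Exosc6, listed at 0 in both of those libraries, and 1 of the higher calls is Dgcr8, listed at 0 in mock. Both share a locus with another gene. Subunits of the RNA exosome were among the lower ones: Exosc8 was at 26.5 ± 1.15 FPKM in the library labelled shKSRP, 17.0 ± 0.986 in the BMP2 library and 90.8 ± 2.78 in mock. Exosc2 was at 12.2 ± 0.682 FPKM in the library labelled shKSRP, against 38.3 ± 1.27 in mock. The deadenylase subunit Pan3 was higher, at 9.34 ± 0.468 FPKM in the library labelled shKSRP, 6.22 ± 0.387 in the BMP2 library and 1.89 ± 0.197 in mock. Its partner Pan2 was called lower in the library labelled shKSRP, at 3.93 ± 0.275 FPKM against 9.31 ± 0.772 in mock, a log2 ratio of −1.06 that was 0.07 at fixed length.

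Among kinases and partners that modify KSRP or TTP, Map2k3, a kinase upstream of p38, was at 64.1 ± 1.33 FPKM in the library labelled shKSRP, against 96.2 ± 1.71 in mock, a log2 ratio of −0.58. Akt2, a kinase of the family that phosphorylates KSRP, was at 52.0 ± 1.19 FPKM in the library labelled shKSRP, against 35.6 ± 0.948 in mock, a log2 ratio of 0.53. The 14-3-3 gene Ywhaz was at 487 ± 6.65 FPKM in the BMP2 library, against 307 ± 3.72 in mock, a log2 ratio of 0.66. None of these ratios reached 2-fold.

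Of 31 listed mRNAs with AU-rich elements or reported as targets of these proteins, 25 were measured. Of these 2 were higher and 9 lower in the library labelled shKSRP than in mock (median −0.49), and in the BMP2 library 2 were higher and 5 lower (median −0.10). In the library labelled shKSRP over the BMP2 library 2 were higher and 7 lower (median −0.37). Over all genes, 11.0% were higher and 12.9% lower in the first of these comparisons (median −0.02), 9.21% and 8.95% in the second (median 0.03), and 6.06% and 8.65% in the third (median −0.02). Myog, the muscle mRNA known as a KSRP target, was at 6.52 ± 0.525 FPKM in the library labelled shKSRP, 11.3 ± 0.735 in the BMP2 library and 9.54 ± 0.665 in mock, below 2-fold in each comparison. The chemokine mRNA Ccl2 was lowest in the BMP2 library, at 13.8 ± 1.10 FPKM in the library labelled shKSRP, 5.25 ± 0.717 in the BMP2 library and 31.0 ± 1.72 in mock. Ccl7, a related chemokine mRNA, was at 30.1 ± 1.63, 11.7 ± 1.07 and 42.4 ± 2.02 FPKM in that order. Dusp1, a phosphatase that switches off p38, was at 5.07 ± 0.407 FPKM in the library labelled shKSRP, 69.9 ± 1.75 in the BMP2 library and 40.7 ± 1.18 in mock. No direction of stability follows from these levels, since decay was not measured.

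**Figure D5:**
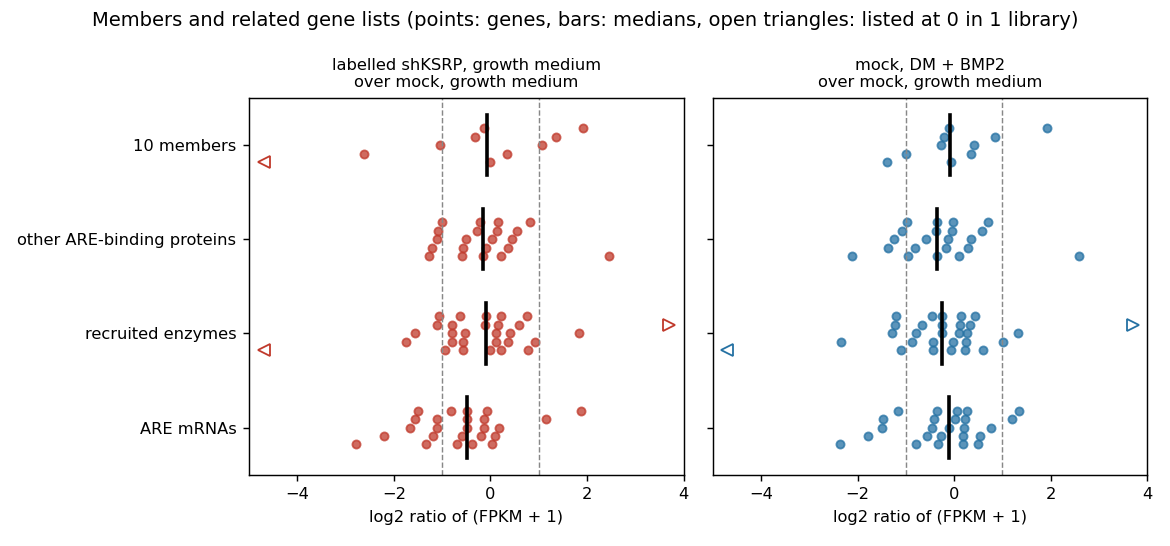
Log2 ratio of (FPKM + 1) over mock of the 10 genes and of 3 lists of related genes, for the library labelled shKSRP on the left and the BMP2 library on the right, 1 point per measured gene, with black bars for medians, dashed lines at 2-fold and open triangles at the edge for genes listed at 0 in 1 of the libraries compared. The medians lie between −0.49 and −0.07, the lowest of them for mRNAs with AU-rich elements in the library labelled shKSRP.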

How the data were processed

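RNA-seq of 3 C2C12 libraries was used, 1 per group, grouped by their titles. The authors deposited a Cufflinks transcript file per library with FPKM and the bounds of its 95% interval, and a score per transcript relative to its locus, as deposited, which was not used. Tools named are Cufflinks 1.3.0, TopHat 1.4.1, Bowtie 0.12.7 and CASAVA 1.8, with the mm9 build, per the submitters' processing notes. Whether the libraries mark strand, and the tools' settings, were not given in the sources used here. The labels' protocols give PCR cycles and mention no molecular identifiers. The intervals cover counting and assignment error only.

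RefSeq identifiers were matched to symbols: of 28222, 27563 matched a RefSeq table of GRCm38.p6 (names only), 166 GENCODE, 216 the files' own name, and 277 matched none. An assembled transcript went to the only gene of its locus, or else to the one with the largest exon overlap. Of 22706 genes, 11462 passed the filter, 1709 of them sharing a locus and 762 listed at 0 in a library. Depth was estimated from interval widths, over transcripts that reach 2000 nt and 5 FPKM. Motifs, exons and sequences came from GENCODE M21 (GRCm38). Levels have mm9 coordinates, and nothing was converted between builds. Python 3.11.15, pandas 2.3.3, numpy 2.4.6 and statsmodels 0.14.6 were used.

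The genes and lists were chosen with earlier results of these data known. Beside the 10 genes, the text names genes from each list by size of ratio, among those above 0. They are the 3 with the largest in the library labelled shKSRP over mock and the 2 largest in the BMP2 library over mock. Myog, Rpl26, Exosc6, Dgcr8 and Pan2, and some cell type markers, were named after their values were seen. A result of the list of kinases and partners is not reported here. The alternatives were other pseudocounts, RefSeq transcripts alone, stricter assignment, fixed length, rescaling, removal of a length trend and 1.5-fold.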

Additional observations from a re-analysis of the deposited data

How the results depend on the processing

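Each value below gives the library labelled shKSRP over mock, the BMP2 library over mock, and the library labelled shKSRP over the BMP2 library as comparisons A, B and C. Scaling to an equal FPKM sum moved the median log2 ratio of all genes to 0.27 in A, 0.26 in B and 0.04 in C. It gave 2029 genes higher and 943 lower in A, 2 of the 10 genes higher and 1 lower in B, and Khsrp at 0.20, 0.053 and 0.14. With a pseudocount of 5, 605 genes were higher and 909 lower in A, 540 and 628 in B, and 335 and 513 in C, with 1 of the 10 genes lower in B. At 1.5-fold, 2469 were higher and 2770 lower in A, 2229 and 2111 in B, and 1523 and 2013 in C, with 2 of the 10 genes higher in B. RefSeq transcripts alone gave 1162 genes higher in C (1129 with the most abundant one), none of the 10 higher in C, 2 higher in B, and Khsrp at 0.83 in A and 0.77 in B. They turned Elavl1 to −2.02 in A, Hnrnpd to 3.04 in B (2.42 with the most abundant one) and Fubp1 to −0.080 in C. At fixed length, where the fragments of a gene are divided by the same length in each library, Elavl1 in A turned to −0.17, and of the 10 genes 1 was higher in A, 1 lower in B, and none higher and 1 lower in C. With the length trend removed, 1 of the 10 was higher in A, and Khsrp was at −0.34 in A and −0.36 in B. The cause of the other changes was not tested.

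No paired analysis was possible because each group holds 1 library, and for that reason no library was left out in turn. Zfp36l1 kept its call in A and B, and Khsrp stayed below 2-fold in A, B and C (−0.36 to 0.83), under the 9 alternatives tried for single genes. Alternatives that act only on assembled models or on length could not move Zfp36l1 in A, where it has no assembled model. The files hold no counts, so depth was known only from interval widths, and a level listed at 0 sets no upper limit.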
